A study of Mus musculus with 3 samples.

Results

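Between day 4 and day 7 of the Leydig differentiation culture, the cells passed from 3 days of expansion to 3 days in differentiation medium, and the levels of all genes on the 2 days are described here. The members are the 2980 day 4 cells and the 2171 day 7 cells, 5151 of the 6124 cultured cells of days 4, 7 and 14. They are all columns that carry the name of either day in the authors' table of filtered cells, so no measured value chose them. Cells of both days came from testes of adult C57BL/6 male mice of 8 to 12 weeks and were sorted as Sca1+/cKit- interstitial cells, and 100000 cells per well were plated on Matrigel. Both days shared 18 h of recovery and the expansion, for which PdgfAA, PdgfBB and Fgf2 were given at 10 ng/ml each together with 0.5 µM SAG. Differentiation medium kept these and added LiCl2 (5 mM) and DAPT (10 µM), and a change of antibiotic came with it. Each day is 1 Drop-seq library, so time in culture, the added agents and the library cannot be told apart, and no test was made. The cells are a sorted mixture with no lineage label.

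Leydig cells make testosterone from cholesterol, which Star brings into mitochondria and Cyp11a1, Hsd3b1 and Cyp17a1 convert stepwise. In the fetal and adult testis they arise from interstitial mesenchymal progenitors, which hedgehog and PDGF signals drive towards the Leydig fate and Notch signals hold back. SAG activates the hedgehog signal transducer Smoothened. Lithium inhibits the kinase Gsk3 and thereby stabilises beta-catenin, the transducer of canonical Wnt signals, and it also inhibits enzymes of inositol metabolism. DAPT blocks gamma-secretase, the protease that frees the active part of a Notch receptor. Interferon-stimulated genes form the antiviral program that factors such as Stat2 and Irf9 switch on once interferon binds its receptor, and their promoters often carry repeats of GAAA spaced by a pair of bases.

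A gene's level is its UMIs (unique molecular identifiers, 1 per captured transcript) summed over the cells of a day and scaled to CPM, counts per 1000000 UMIs. Day 4 held 12677110 UMIs with a median of 2886.5 per cell, and day 7 held 11627440 with a median of 3285. Exact 95% intervals stand in parentheses after levels, folds and shares where given, and they cover counting error only. For a gene with 0 UMIs on a day, the upper limit given is instead the level of 3 UMIs. Depth per cell sets how often a gene is seen, so the percentages of cells with a UMI come from cells randomly reduced to 1500 UMIs apiece, a step that 753 cells of day 4 and 429 of day 7 were too shallow for, with the percentages over all cells as counted in brackets. Mitochondrial genes took 1.37% of UMIs on day 4 and 1.46% on day 7, and cytosolic ribosomal proteins took 13.4% and 13.0%. No cell barcode was shared between the 2 days. Marker genes of the sorted interstitial progenitors summed to 1491 CPM on day 4 and 709 CPM on day 7, those of peritubular myoid cells to 4430 and 4049 CPM, and those of Leydig cells to 232 and 449.6 CPM. Most of the progenitor sum came from Dcn and Ly6a, of the myoid sum from Acta2 and Tagln, and of the Leydig sum from Star. Of the 6 progenitor markers, 5 stayed within 2-fold. Macrophage markers summed to 11.8 and 29.2 CPM (C1qa at 0 UMIs on both days, which allows up to 0.237 and 0.258 CPM), germ cell markers to 117 and 19.7 CPM, lymphocyte markers to 3.87 and 5.07 CPM, and endothelial markers to 95.2 and 123 CPM, mostly from Cdh5 (77.7 and 111 CPM). The same sums were 1019 and 1672 CPM for Sertoli markers, mostly from Ctsl and Clu (Fshr was not analysed here), and 122 and 133 CPM for mural markers, mostly from Cspg4.

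Of the 8086 genes with a mean level of at least 10 CPM over the 2 days, 130 (1.61%) were at least 2-fold higher on day 7 and 167 (2.07%) at least 2-fold lower. Such genes are said below to have risen or fallen. The fold for this count used levels with 1 CPM added. At least 4-fold differences were seen for 12 genes in the upward and 40 in the downward direction. The median log2 ratio of all genes was 0.07, with the 10th percentile at -0.39 and the 90th at 0.51. Ratios above 0 were found for 57.9% of all genes. For the counts within lists below, this share and the 1.61% and 2.07% are the yardstick. For 39 of the higher and 33 of the lower genes, the counting interval of the ratio reached below 2-fold. In all, 44 lists of pathways and gene families with 1006 genes contained 25 of the genes that rose and 63 of those that fell.

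**Figure D1:**
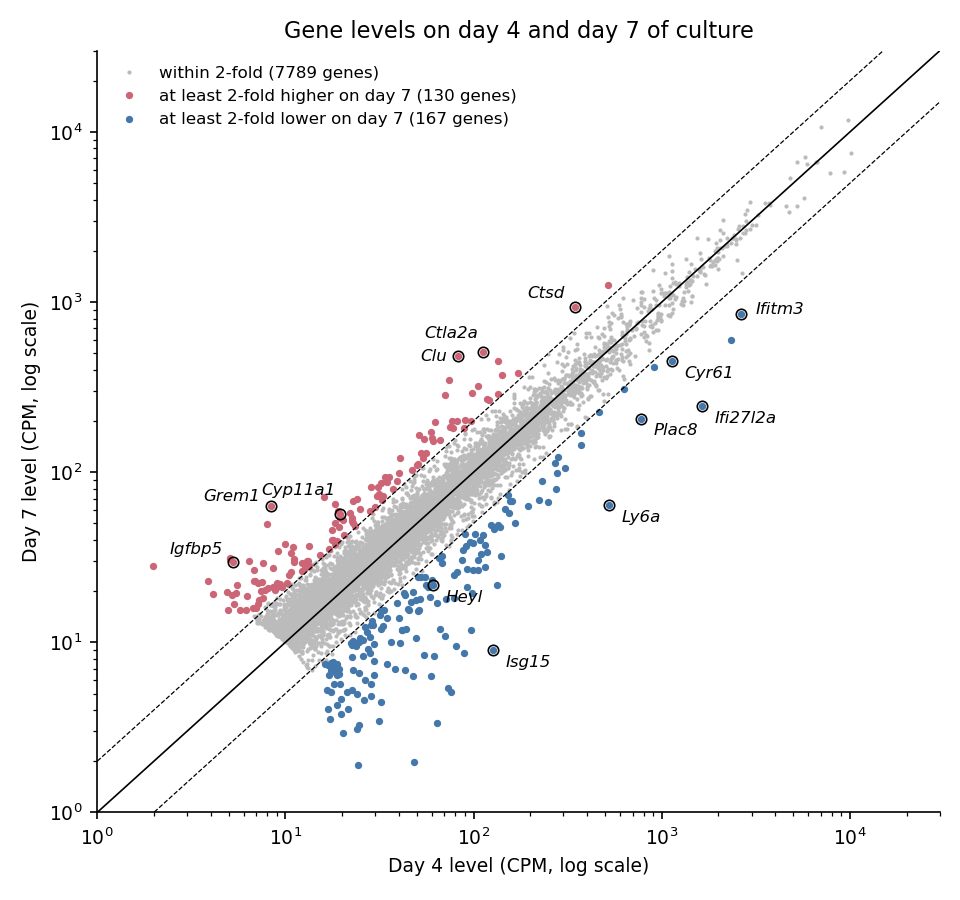
Gene levels on day 4 (x axis, CPM, log scale) and day 7 (y axis, CPM, log scale). Each point is 1 of the 8086 genes, with the 130 that rose in red, the 167 that fell in blue, the line of equal levels solid and 2-fold lines dashed. Isg15 and Ly6a lie far below the line, and Clu and Grem1 far above it.

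Of the 44 lists, the interferon-stimulated genes had the lowest median ratio. Of 35 members above the minimum level, 31 fell, 4 stayed within 2-fold and 0 rose, with a median log2 ratio of -1.89 against 0.07 for all genes. Together the 41 members held 7362 CPM on day 4 and 2162 CPM on day 7, 3.41-fold less, and 2029 CPM was their sum on day 14. Of the 20 genes with the largest falls at a mean of at least 50 CPM, 7 belonged to this list. The promoter stretches below show a sequence that many of these genes carry. Windows of 300 bases, most of them before the start, taken from RefSeq on GRCm38.p6, were found for 23 of the 31 members that fell. The motif GAAANNGAA, sought on both strands, was in 15 of these 23 genes (65.2%) and in 9.76% of the 27025 genes with such a window. Within the 150 bases before the start it was in 11 of the 23 (47.8%) and in 4.61% of all genes, and at least 2 matches were there in 6 of the 23 (26.1%) and in 0.244% of all genes. The following 4 stretches were chosen after values were seen, as those with at least 2 matches and no annotated exon in them, and are shown because the repeats stand out. Capitals mark the matches, which lie on the strand shown and overlap in Isg15, Bst2 and Oas1a and lie on the other strand in Ifit3.
Isg15, chr4:156200819-156200968, minus strand: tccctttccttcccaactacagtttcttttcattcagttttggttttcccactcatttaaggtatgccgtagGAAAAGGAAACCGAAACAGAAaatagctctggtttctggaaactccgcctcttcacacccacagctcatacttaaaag
Bst2, chr8:71537473-71537622, minus strand: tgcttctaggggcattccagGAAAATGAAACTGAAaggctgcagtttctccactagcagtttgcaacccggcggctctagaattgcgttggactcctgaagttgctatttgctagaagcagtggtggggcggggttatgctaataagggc
Ifit3, chr19:34583379-34583528, plus strand: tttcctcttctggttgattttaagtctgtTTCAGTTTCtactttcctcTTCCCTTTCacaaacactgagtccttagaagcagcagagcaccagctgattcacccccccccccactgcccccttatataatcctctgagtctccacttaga
Oas1a, chr5:120907526-120907675, minus strand: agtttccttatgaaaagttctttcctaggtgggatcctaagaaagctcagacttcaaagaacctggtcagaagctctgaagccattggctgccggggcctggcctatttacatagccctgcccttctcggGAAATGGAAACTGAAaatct
The matches begin 78, 72 and 66 bases before the start of Isg15 and 20 and 14 bases before that of Oas1a. A match is a description of letters, and binding was not measured. The list was drawn up as interferon-stimulated genes, so these shares describe the list, and a link to the fall was not tested.

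Isg15 (chr4:156199424-156200818 of GRCm38), whose protein is attached to other proteins in virus-infected cells, stood at 126 CPM (120.3–133) on day 4 and at 9.03 CPM (7.39–10.9) on day 7, and it was at 3.19 CPM on day 14. It fell 14.0-fold (11.5–17.2) and was seen in 16.3% of day 4 cells and 0.804% of day 7 cells [31.2% and 3.41%]. The intervals of the 2 days lie far apart. Ifi27l2a fell from 1631 to 245 CPM, 6.67-fold (6.41–6.94), and was at 22.3 CPM on day 14. Ifitm3, a membrane protein that blocks virus entry, fell from 2633 to 852 CPM, 3.09-fold (3.02–3.16). It was still seen in 96.5% of day 4 cells and 70.1% of day 7 cells [97.1% and 83.6%]. Irf7, a transcription factor that amplifies the interferon response, went from 73.2 to 5.42 CPM, a fall of 13.5-fold (10.5–17.7). The double-stranded RNA sensors Ifih1 and Ddx58 fell as well. Ifih1 had 92.0 CPM on day 4 and 21.1 on day 7, and Ddx58 had 115 and 37.5 CPM. Oasl2, of the family that senses double-stranded RNA, fell 8.20-fold (6.87–9.85) from 97.3 CPM. Of the factors that switch the program on, Stat2 fell from 109.6 to 33.1 CPM and Irf9 from 58.4 to 18.5 CPM. Both fell about as much, by 3.31-fold and 3.16-fold, and less than Isg15. Bst2, which tethers virus particles at the cell surface, fell 2.07-fold (1.98–2.17) from 466 CPM and was at 704 CPM on day 14, above its day 4 level.

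Among members above the minimum level, the steepest falls were those of Zbp1, a sensor of Z-form nucleic acid, from 48.2 to 1.98 CPM, 24.4-fold (16.1–38.7), and Ifi44, from 63.8 to 3.35 CPM, 19.03-fold (13.8–27.0). Gbp3 and Iigp1, GTPases that attack the vacuoles of intracellular parasites, fell 15.0-fold and 7.45-fold. Usp18, which removes Isg15 from proteins, fell from 43.0 to 6.88 CPM and Xaf1, linked to cell death, from 133 to 21.8 CPM. The 4 members within 2-fold were Irf1 (17.2 and 12.6 CPM), Ifitm2 (306 and 259.6), Ifit2 (17.7 and 17.5) and Rsad2 (9.54 and 10.6). Among genes outside the list, Psmb8, a subunit of the immunoproteasome, fell from 97.8 to 19.5 CPM, and Ifi203, Mndal and Parp9 were also among the 20 largest falls. Antigen presentation through MHC class I moved less. Psmb8 was the single one of its 12 members to fall and 0 rose, with a median log2 ratio of -0.51. Tap1, the peptide transporter, had 15.5 and 8.60 CPM, and Psme2, a proteasome activator, had 212 and 140.0 CPM.

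Across single cells the lower sum over the list was general. This sum leans on Ifitm3 and Ifi27l2a, which held 33377 and 20672 of the list's 93326 UMIs in all day 4 cells. Among 1500 UMIs, the median day 4 cell held 11 UMIs of the interferon list and the median day 7 cell held 3. The 5th and 95th percentiles were 4 and 20 UMIs on day 4 and 0 and 8 on day 7, and 7.06% of day 7 cells held no UMI of the list. A day 7 cell at or above the day 4 median was rare, 14 of 1742 cells (0.804%). What remained on day 7 was unevenly held for some members. Of the 123 Rsad2 UMIs of day 7, 113 came from 10 cells and 71 from a single cell, whereas 32 of the 121 of day 4 came from 10 cells. Ifit1 had 77 of its 124 day 7 UMIs in 10 cells, against 66 of 625 on day 4. In the day 7 cell with the largest share, 139 of 4172 UMIs (3.33%) belonged to the list, compared with 0.194% in the median cell.

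**Figure D2:**
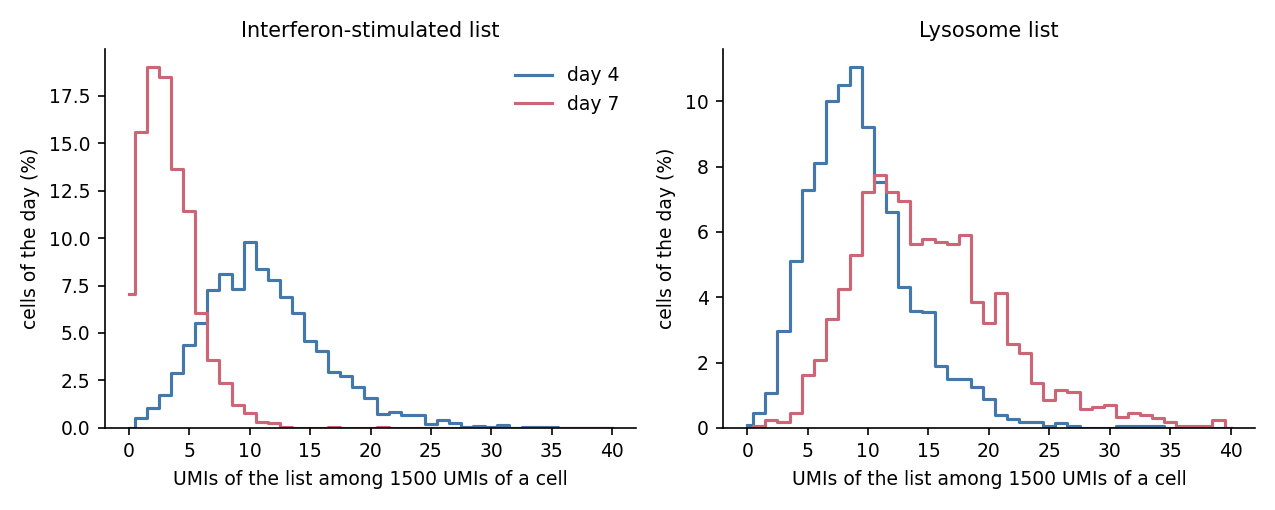
UMIs of the interferon-stimulated list (left) and of the lysosome list (right) in each cell thinned to 1500 UMIs (x axis), as the percent of cells of that day (y axis). The interferon curve of day 7 has its median at 3 UMIs and that of day 4 at 11, and the lysosome curves have their medians at 14 and 9.

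Of 18 progenitor surface and lineage genes, 11 lay below 0, with a median log2 ratio of -0.42, 2 fell and 0 rose. Ly6a (chr15:74994877-74998031), which encodes the surface protein Sca1 used for the sort, fell from 523 CPM (510.2–535) to 64.2 CPM (59.6–68.9), 8.15-fold (7.55–8.80), and was at 358 CPM on day 14. A Ly6a UMI was seen in 44.2% of day 4 cells and 6.77% of day 7 cells [57.6% and 15.9%]. Its neighbour Ly6c1 fell from 24.0 to 3.10 CPM, 7.75-fold (5.47–11.3). Ly6 genes are near-identical copies in places, so reads may be shared between them. Ly6a is itself a gene that interferon induces in other cells. The remaining markers stayed within 2-fold. Tcf21, a transcription factor that marks the interstitial progenitor, had 30.9 and 21.6 CPM, Pdgfra 107 and 65.3 CPM, and Cd34 135 and 93.6 CPM. Vcam1 and Cd44, adhesion proteins of mesenchymal cells, had higher values on day 7, 176 against 98.6 CPM and 238 against 164 CPM.

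Among the 3 compared targets of Notch, the pathway that DAPT blocks, 1 fell and 0 rose. Heyl (chr4:123233556-123249875), a repressor that active Notch induces directly, fell from 60.8 CPM (56.6–65.3) to 21.7 CPM (19.1–24.5), 2.81-fold (2.43–3.25), with 3.94 CPM on day 14. It was seen in 9.03% of day 4 cells and 2.58% of day 7 cells [17.2% and 7.97%]. Hes1, another repressor downstream of Notch, had 93.2 CPM on day 4, 54.0 on day 7 and 29.9 on day 14, which is 1.72-fold (1.56–1.90) lower on day 7 and short of the 2-fold limit. Hes6, which opposes Hes1, had 17.8 and 25.2 CPM. The other named targets were too scarce to compare (Dtx1, Hes2, Hes7, Hey1, Hey2 and Nrarp), and Hes5 was not analysed here, so the list's median of -0.78 rests on 3 genes. None of the 8 Notch ligands, receptors and core factors moved by 2-fold. Rbpj, the DNA-binding partner of Notch, had 41.3 and 41.6 CPM, the ligand Jag1 47.6 and 35.7 CPM, and Notch2 14.8 and 18.5 CPM. Adam10 and Adam17, which cut the receptor before gamma-secretase does, had 152 and 166 CPM and 24.1 and 26.2 CPM. Maml2, a coactivator, had 15.9 and 11.3 CPM. Notch1 (4.26 and 3.44 CPM), Notch3 and 8 further members lay under the minimum level. The 6 measured gamma-secretase subunits all had a log2 ratio above 0, as had 57.9% of all genes. None of the subunits passed 2-fold, and their median was 0.30. The widest difference among them was that of Psenen, 71.2 and 112 CPM.

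Listed Wnt targets and inhibitors did not move together. The compared members include secreted antagonists, while Axin2, Lef1, Tcf7 and Nkd1 lay under the minimum. Their counts therefore say little about canonical Wnt targets. Of 10 compared members, 0 rose and 0 fell, 5 lay above 0 and 5 below, and their median log2 ratio was 0.06, which changed sign in 4 of the 12 processing alternatives. Ccnd1, a G1 cyclin, had 208 CPM on day 4 and 307 on day 7, 1.47-fold (1.40–1.55) higher. Myc had 48.3 and 31.7 CPM, and Prickle1 had 41.7 and 27.3 CPM. Sfrp1, a secreted Wnt antagonist, had 118 and 85.9 CPM, Dkk3 34.7 and 26.7 CPM, and Sfrp2 20.5 and 24.2 CPM. Twist1, which specifies mesenchyme, had 46.5 and 56.3 CPM, and Bambi, Nkd2 and Lgr4 differed less between the days than Myc did. Axin2, the feedback inhibitor often read as a reporter of beta-catenin, was below the minimum with 8.36 CPM (6.85–10.1) on day 4 and 3.53 CPM (2.53–4.78) on day 7, and was thus 2.37-fold (1.64–3.49) lower. Nkd1, another feedback inhibitor, had 3.47 and 1.204 CPM, and the transcription factors Lef1 and Tcf7 stood at 0.552 and 0.516 CPM and at 2.37 and 2.67 CPM. Of 14 Wnt ligands, receptors and core components, 0 passed 2-fold. Ctnnb1, the gene of beta-catenin, had 296 and 285 CPM and Gsk3b, the target of lithium, had 147 and 134 CPM. Fzd2 and Fzd1, both receptors, differed in opposite directions, with 75.7 and 46.7 CPM and with 22.8 and 36.4 CPM. Wls, which escorts Wnt proteins to the surface, had 582 and 803 CPM. None of 6 lithium-sensitive enzymes of inositol and nucleotide metabolism passed 2-fold. Isyna1, which makes inositol, had 66.5 and 50.3 CPM, and Impa1, which lithium inhibits, had 41.3 and 42.8 CPM.

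Genes of the hedgehog pathway, whose agonist SAG was in both media, had a median log2 ratio of -0.59. Gli1, the transcription factor most tied to pathway activity, had 13.0 and 7.14 CPM, 1.82-fold (1.39–2.40) lower. Ptch1, the main receptor and itself a target, had 36.5 and 22.3 CPM, 1.64-fold (1.41–1.92) lower. Gli1 and Ptch1 stayed within 2-fold, and the counting intervals of both ratios lie on the side of day 4. Gli3 had 15.5 and 10.8 CPM, while Smo, the target of SAG, had 13.3 and 16.0 and the coreceptor Boc 15.7 and 19.2 CPM. Hhip and Gli2 were among 9 members under the minimum.

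For the growth factors in both media, 2 of 13 genes of FGF signaling and ERK feedback fell. Fgf7, a secreted ligand, fell from 50.4 to 15.3 CPM, 3.29-fold (2.78–3.91), and Dusp5, an ERK phosphatase that ERK itself induces, from 45.4 to 15.6 CPM, 2.91-fold (2.46–3.46). Dusp6, a phosphatase of the same kind, had 61.1 and 63.0 CPM, and Spry1 had 110.0 and 62.9 CPM. None of the other members passed 2-fold. Of 6 PDGF genes, the ligand Pdgfa alone passed 2-fold and rose 2.25-fold, and Pdgfrb had 43.6 and 36.0 CPM. Among the called genes of the Wnt, Notch, hedgehog and actin lists, S100a4 had a promoter window in the table, and it held 1 match to TGGGAA, the core letters bound by Rbpj, while 28.3% of all genes had at least 1 match in theirs.

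**Figure D3:**
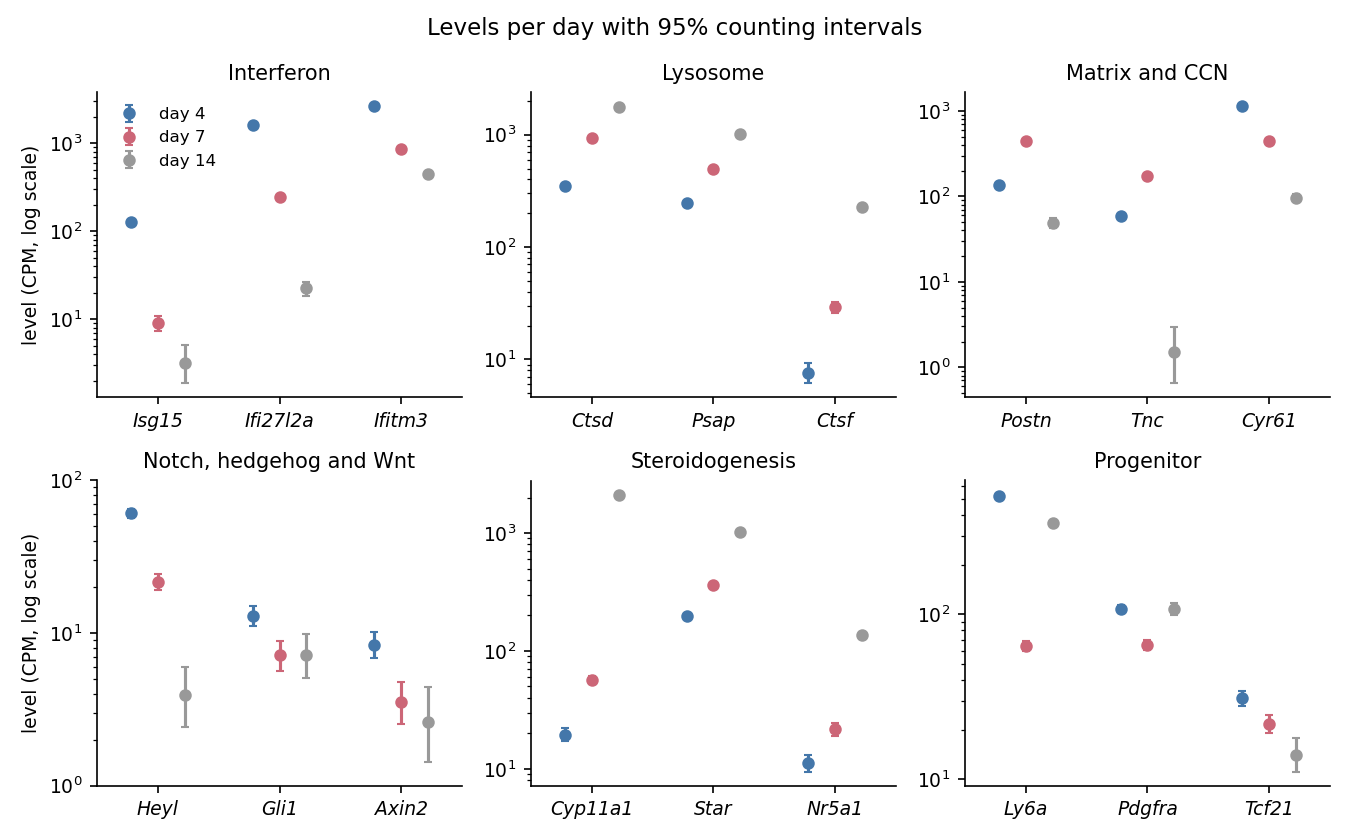
Levels of 18 genes on day 4 (blue), day 7 (red) and day 14 (grey) in CPM on a log scale, with bars for the exact 95% counting interval and 1 library per day. Isg15 and Heyl decline from day to day, and Ly6a is lowest on day 7.

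Of 28 lysosomal genes compared, 5 rose, 0 fell and 27 lay above 0, with a median log2 ratio of 0.71. The list summed to 6314 CPM on day 4, 9862 on day 7 and 20987 on day 14. Among 1500 UMIs, the median cell held 9 of its UMIs on day 4 and 14 on day 7. Ctsd (chr7:142375911-142388038), an aspartic protease that degrades proteins in lysosomes, rose from 347 to 941 CPM, 2.71-fold (2.62–2.81), and was seen in 37.0% of day 4 cells and 72.1% of day 7 cells [58.6% and 84.5%]. Ctsf, a cysteine protease, rose from 7.57 to 29.2 CPM, 3.85-fold (3.06–4.88), and reached 228 CPM on day 14. Ctsa, which protects lysosomal enzymes from degradation, rose from 76.6 to 199 CPM. Its partner Neu1, a sialidase, rose from 20.3 to 52.3 CPM, and Ctsz rose from 135 to 289.9 CPM. Psap, which serves the breakdown of sphingolipids, lay just inside the limit at 1.98-fold higher. The membrane proteins Lamp1 and Cd63 had 596 and 967 CPM and 1766 and 2351 CPM. Ctsl and Ctsb differed less, with 903 and 1157 CPM and 464 and 611 CPM, and Ctso (14.2 and 9.89 CPM) was the 1 member below 0.

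Clu (chr14:65968483-65981547), a secreted chaperone that binds lipids, showed the largest rise of any gene with a mean of at least 50 CPM. It went from 82.6 CPM (77.7–87.7) to 479 CPM (467–492), 5.80-fold (5.43–6.20), and from 9.38% to 37.0% of cells [17.0% and 54.9%]. Apoe, which carries cholesterol out of cells, rose from 88.4 to 181 CPM and stood at 2154 CPM on day 14. These were the 2 of 9 genes of cholesterol efflux that rose, with a median of 0.47. In cholesterol synthesis and uptake, 0 of 27 genes passed 2-fold. In fatty acid handling, Fabp3, a fatty acid carrier, rose from 9.31 to 22.02 CPM. Fabp5, a relative of it, fell from 282 to 123 CPM, and Lpl, which frees fatty acids from lipoproteins, fell from 99.2 to 26.7 CPM, 3.72-fold (3.28–4.22). Mgll, which splits monoglycerides, rose from 70.5 to 285 CPM and was at 4.32 CPM on day 14.

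Of 11 steroidogenic and Leydig genes compared, 1 rose and 0 fell. Cyp11a1 (chr9:58006411-58027023), the enzyme that cuts the cholesterol side chain, rose from 19.5 CPM (17.1–22.1) to 56.8 CPM (52.5–61.3), 2.91-fold (2.51–3.39), and its day 14 level was 2089 CPM. The median log2 ratio of the list was 0.26, though -0.21 at a minimum mean level of 50 CPM. Star, which moves cholesterol to the inner mitochondrial membrane, had 197 CPM on day 4 and 362 on day 7, 1.84-fold (1.75–1.93) higher, and was seen in 18.1% and 30.2% of cells [30.9% and 46.5%]. Nr5a1, the transcription factor that drives steroidogenic genes, had 11.2 and 21.8 CPM, 1.94-fold (1.58–2.40) higher. Hsd3b1 had 11.5 and 20.2 CPM, beside 1769.6 on day 14. Its UMIs came from few cells, with 137 of 146 in 10 cells on day 4 and 194 of 235 in 10 cells on day 7. Under the minimum were Cyp17a1, with 0.158 and 2.32 CPM, Insl3, a hormone that adult Leydig cells secrete, with 3.39 and 7.83 CPM, and Lhcgr, the receptor for luteinizing hormone, with 0.237 and 0.946 CPM.

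Cyp11a1 was held by few cells. On day 4, 24 cells had a Cyp11a1 UMI and 10 of them held 233 of the 247 UMIs. On day 7, 48 cells had one, and 10 held 423 of 660. Cells with at least 5 Cyp11a1 UMIs, a limit chosen after values were seen, numbered 7 of 2980 on day 4 (0.235%, interval 0.0945–0.483) and 26 of 2171 on day 7 (1.198%, 0.784–1.75), beside 311 of 973 on day 14. These cells carried other Leydig transcripts. Of the 7 day 4 cells, 6 had an Insl3 UMI and 7 each had a UMI of Hsd3b1 and Star. Of the 26 day 7 cells, 19 had Insl3, 20 Hsd3b1, 24 Star and 6 Cyp17a1. Star was spread more widely, over 921 cells on day 4 and 1010 on day 7, with 13.1% and 12.2% of its UMIs in the 10 cells with the most. As a yardstick for free RNA, Prm1, a gene of elongating spermatids, was seen after thinning in 1.93% and 1.38% of cells [4.30% and 4.24%], and Cyp11a1 in 0.449% and 1.72% [0.805% and 2.21%].

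Matrix genes moved in both directions. Postn, a matricellular protein of healing tissue, rose from 136 to 449.6 CPM, 3.32-fold (3.14–3.504), and from 15.1% to 39.8% of cells [26.5% and 57.2%]. Tnc, another such protein, rose from 59.2 to 173 CPM, 2.92-fold (2.68–3.18), and was at 1.503 CPM on day 14. Col11a1, a fibril collagen, rose from 142 to 375 CPM as the 1 of 17 collagens past 2-fold, and 14 of the 17 lay above 0 with a median of 0.36. Col1a1 had 789 and 1148 CPM and Col3a1 had 4566 and 3665 CPM, so these fibril collagens differed in opposite directions. Of 14 elastic fibre genes, 2 rose and 2 fell. Ltbp2 and Mfap4, proteins of the microfibril, rose from 106 to 321 CPM and from 28.4 to 81.9 CPM, while Efemp1 and Ltbp4 fell from 223 to 68.2 CPM and from 26.3 to 12.3 CPM. Of the small proteoglycans that coat collagen fibrils, Ogn fell from 70.9 to 10.9 CPM, 6.49-fold (5.39–7.88), and Aspn from 22.95 to 6.88 CPM, Fmod rose from 17.1 to 35.3 CPM, and Dcn had 621 and 368 CPM. Loxl2, which cross-links collagen, fell from 633 to 309.9 CPM, and its relative Lox had 1095 and 1869 CPM.

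Matrix proteases and their inhibitors also moved both ways. Mmp2, which degrades basement membrane collagen, rose from 51.6 to 166 CPM, 3.21-fold (2.94–3.52), and stood at 584 CPM on day 14. Plau, a plasminogen activator, fell from 32.3 to 15.5 CPM, and the protease Adamts9 from 24.6 to 6.62 CPM. Timp1, an inhibitor of metalloproteases, had 6989.8 and 10706 CPM. Cyr61, a matricellular protein induced by the mechanosensitive factors Yap and Taz, fell from 1128 to 447 CPM, 2.52-fold (2.44–2.604). Ctgf, of the same family and control, had 2673 and 1489 CPM, 1.79-fold lower.

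Of 35 genes of the actin cytoskeleton, 33 lay below 0, 2 fell and 0 rose, the median was -0.37, and the list summed to 43390 CPM on day 4, 33968 on day 7 and 7333 on day 14. S100a4, a calcium-binding protein that acts on myosin, fell from 904 to 417 CPM, 2.17-fold (2.10–2.24), and Myh11, the smooth muscle myosin, from 28.9 to 13.4 CPM, 2.15-fold (1.78–2.61). Actb and Tpm1, of the general cytoskeleton, had 10108 and 7496 CPM and 5209.9 and 3657 CPM. The smooth muscle genes Acta2 and Tagln hardly differed, with 3162 and 2831 CPM and 1138 and 1117 CPM, and their day 14 levels were 97.1 and 29.1 CPM. Cnn1, a marker of the same cells, had 21.9 and 26.6 CPM.

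In TGF-beta and activin signaling, 2 of 17 genes fell, 0 rose and 14 lay below 0. Inhbb, a subunit of activin B, fell from 22.5 to 5.25 CPM, 4.29-fold (3.24–5.75), and the ligand Tgfb2 from 17.5 to 7.31 CPM. Fstl3, which binds activin, lay just inside the limit with 133 and 66.7 CPM. In the BMP pathway, Grem1 (chr2:113746164-113758646), a secreted BMP antagonist, rose from 8.36 CPM (6.85–10.1) to 63.6 CPM (59.1–68.3), 7.601-fold (6.19–9.41), and 0 UMIs of it were counted on day 14, which allows up to 0.563 CPM. Grem1 was seen in 20 cells on day 4 and in 223 cells on day 7, and the 10 cells with the most UMIs held 95 of 106 on day 4 and 165 of 739 on day 7. The ligand Bmp4 fell from 18.5 to 7.05 CPM and Id3, a target of BMP signals, from 108 to 40.2 CPM, 2.69-fold (2.42–2.99). Id2, a target of the same kind, had 24.8 and 14.9 CPM. Of the insulin-like growth factor binding proteins, Igfbp5 rose from 5.29 to 29.5 CPM, 5.58-fold (4.29–7.37), and Igfbp3 fell from 28.3 to 8.69 CPM. On day 7, 10 cells held 208 of the 343 Igfbp5 UMIs.

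Listed genes of mitosis, DNA replication, and cyclins and CDK inhibitors stayed within 2-fold. None of 28 mitosis genes and 23 DNA replication genes rose or fell, and the median of the replication genes was 0.28. Mki67 had 133 and 109 CPM, and Rrm2, a subunit of the enzyme that makes deoxynucleotides, had 30.9 and 50.9 CPM. Cells with at least 2 UMIs of the mitosis list made up 22.6% (20.9–24.4) of thinned cells on day 4 and 22.8% (20.9–24.9) on day 7, and as counted 30.0% and 32.9%. On day 14 the thinned share was 2.27% (1.35–3.56). Of 14 D and E cyclins and CDK inhibitors, 13 lay above 0 with a median of 0.49. Cdkn1a, an inhibitor that stress induces through p53, had 284 and 498 CPM, Ccnd2, a G1 cyclin, had 512 and 948 CPM, and Cdkn2a had 21.0 and 42.3 CPM. With 1 CPM added to each level, Cdkn2a lay just inside the limit at a log2 ratio of 0.98.

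The genes that rose or fell were also compared within mitotic and within other cells. They had been called on the pool of all cells, so agreement between the kinds of cells is partly set by that choice. Within cells with at least 2 mitosis UMIs (893 on day 4, 714 on day 7), 111 of the 130 genes that rose were at least 2-fold higher, and within cells with none (1576 and 1059) 116 were. For the 167 genes that fell, the numbers were 150 and 156. Both kinds of cells had the same sign for 128 of the higher and 167 of the lower genes. The interferon list had medians of -1.83 and -1.84 in these kinds of cells, and the lysosome list 0.70 and 0.74. The 2 exceptions in sign were Cyp11a1, with a log2 ratio of -0.42 in mitotic and 2.52 in other cells, and Lyz2, a macrophage gene. Lyz2 rose from 4.10 to 19.4 CPM over all cells, with a ratio of 4.82 in mitotic and -1.11 in other cells, and a single day 7 cell held 94 of its UMIs. The spermatid genes Prm1, Prm2 and Tnp1 were likewise held by few cells. On day 4, 10 cells held 1177 of their 1458 UMIs and 1 cell held 614, while on day 7 no cell had more than 2 of the 216.

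**Figure D4:**
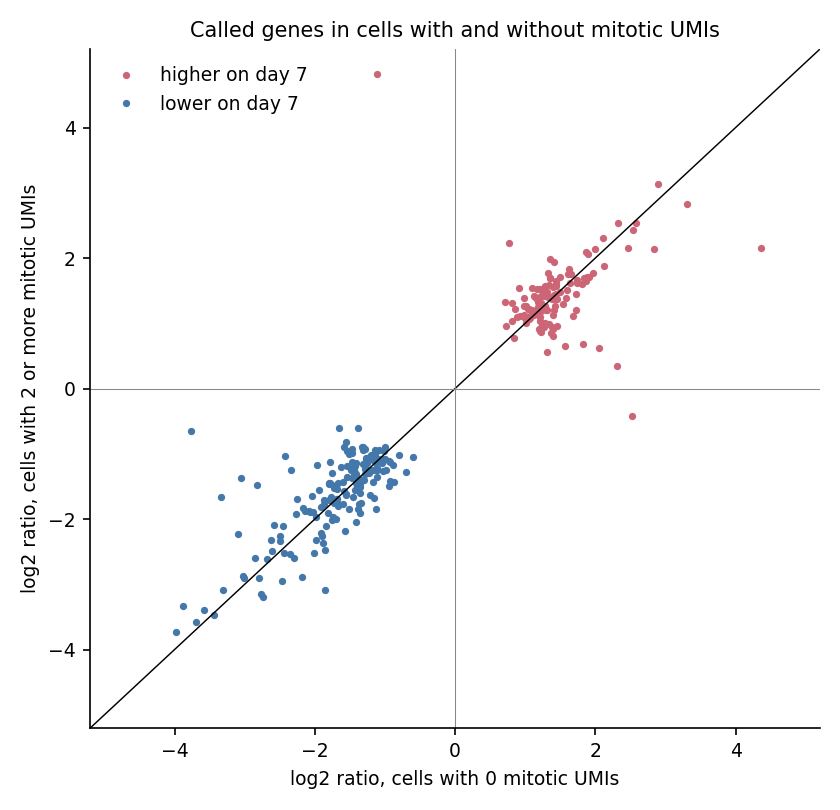
Log2 ratio of day 7 to day 4 in cells with 0 mitosis UMIs (x axis) and in cells with at least 2 (y axis) for the 130 genes that rose (red) and the 167 that fell (blue). Nearly all points lie near the diagonal, and the red point at the upper left is Lyz2 and the one just below 0 is Cyp11a1. The genes were called on all cells pooled, which partly sets this agreement.

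Metabolic and housekeeping lists differed little. None of 49 nuclear genes of oxidative phosphorylation passed 2-fold (median 0.10) and none of 80 ribosomal protein genes (median -0.05). Of the 13 listed messenger RNAs encoded in mitochondria, 8 were compared, and all 8 lay above 0 with a median of 0.61. Among them mt-Co1 had 300.5 and 525 CPM, whereas mitochondrial ribosomal RNA mt-Rnr2 had 7832 and 5771 CPM. A transcript annotated as ribosomal RNA, Rn18s-rs5, rose from 74.4 to 350.4 CPM, and its part in the other differences was not tested. In glycolysis, 2 of 20 genes rose, the isoenzyme genes Eno2 (6.78 to 22.8 CPM) and Aldoc (7.18 to 22.4 CPM). Retinoid genes had 2 of 10 higher, Aldh1a3, which makes retinoic acid, from 75.3 to 185 CPM and Crabp1, which binds it, from 29.9 to 62.5 CPM. Of 29 glutathione and peroxide genes, Gpx3 and Mgst3 rose, from 40.2 to 98.8 CPM and from 10.7 to 26.1 CPM, and Gsta3 fell from 154 to 57.2 CPM. On day 4 a single cell held 200 of the 509 Gpx3 UMIs, and a single cell held 111 of the 379 Crabp1 UMIs. The imprinted genes Nnat and Mest fell from 24.7 to 3.27 CPM and from 20.4 to 2.92 CPM, 2 of 11 members. Single members fell in further lists, Alpl, the phosphatase of mineralizing cells, from 21.6 to 4.04 CPM, Tfrc, which imports iron, from 24.7 to 10.1 CPM, and Ier3, an immediate-early gene, from 78.9 to 25.03 CPM. Chemokine and cytokine, prostaglandin and unfolded protein response genes (9, 6 and 19 compared) had no member past 2-fold, and Hspa5, the main chaperone of the endoplasmic reticulum, had 2515 and 1778 CPM.

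**Figure D5:**
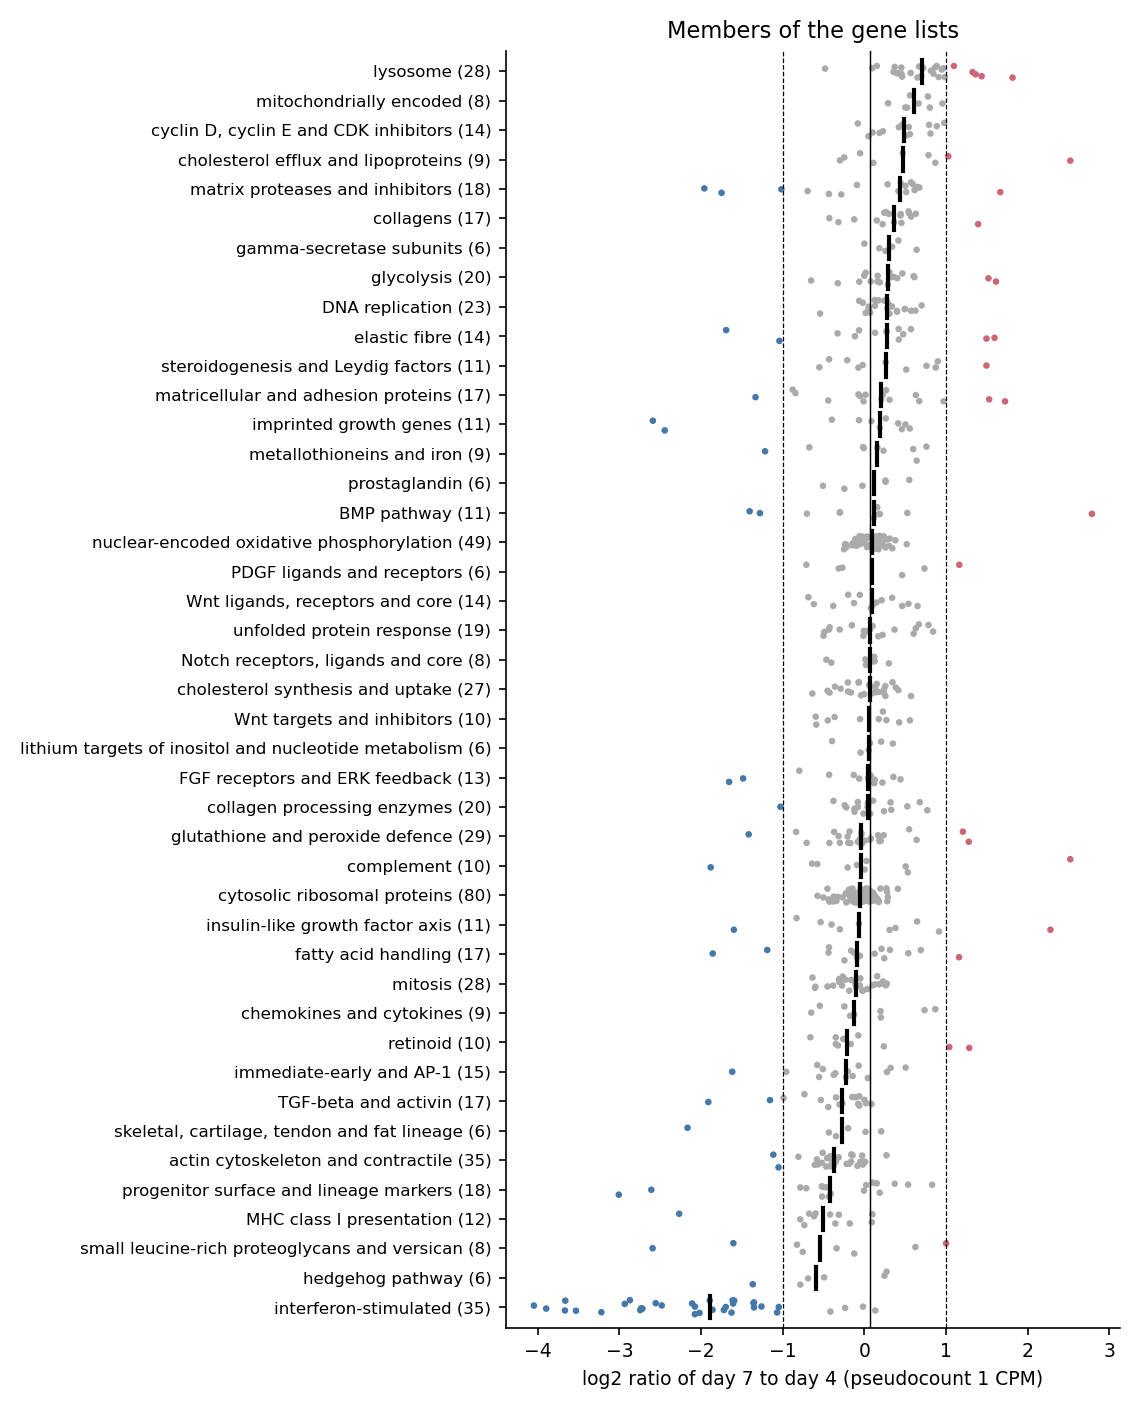
Log2 ratio of day 7 to day 4 (x axis, pseudocount 1 CPM) for each compared member of the 43 lists with at least 6 members compared (y axis, number compared in parentheses), with the median of each list as a black bar, the median of all genes as a solid line and 2-fold as dashed lines. The interferon-stimulated list has its median at -1.89 and the lysosome list at 0.71, and the hedgehog list at -0.59.

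Outside the lists, 105 genes rose and 104 fell. Ctla2a, whose protein resembles the propeptide of a cysteine protease, rose from 112 to 506 CPM, 4.52-fold (4.26–4.79), and stood at 1998 CPM on day 14. Mme, a membrane peptidase, rose from 62.6 to 197 CPM, and Itgbl1, related to integrin beta chains, from 98.6 to 292 CPM. Gadd45a, which growth arrest and DNA damage induce, rose from 54.8 to 156 CPM. Ank, a pyrophosphate transporter, Robo2, a receptor for Slit guidance proteins, and Slc29a1, a nucleoside transporter, rose 2.98-fold, 2.62-fold and 2.62-fold. Pla2g16, Frrs1 and Grina completed the 20 largest rises, from 33.8 to 93.9, from 32.0 to 86.3 and from 31.0 to 81.4 CPM. Among the largest falls, Plac8 went from 778 to 206 CPM, 3.77-fold (3.61–3.95), and was seen in 61.5% of day 4 cells and 24.0% of day 7 cells [75.5% and 40.2%]. Cygb, a globin of fibroblasts and stellate cells, fell from 247 to 66.7 CPM, and Apod, a lipid carrier, from 141 to 32.0 CPM. Sparcl1, a matricellular relative of Sparc, fell 3.46-fold, the heparan sulfate proteoglycan Sdc4 3.45-fold and Sdpr, a protein of caveolae, 3.31-fold. Syngr1, chosen after its values were seen because its ratio was the steepest upward, rose from 1.97 to 28.0 CPM, 14.2-fold (9.46–22.3), and was counted in 23 cells on day 4 and 228 on day 7.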

How the data were processed

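Single-cell transcriptomes of cultured testicular interstitial cells were measured by Drop-seq, with 1 library each for days 4, 7 and 14 in a single sequencing batch. To make their files the authors used STAR with the GRCm38 genome and the Drop-seq tools, and the deposited values are raw UMI counts per gene and barcode. The submitters' processing notes name STAR 2.5.2a, Picard 2.6.0 and SAMtools 1.2. The paper's methods name a different STAR version, and which of them made the deposited counts is not known here. The annotation release is not given in the sources used here, so genes were matched by symbol, and gene positions are those of GENCODE M21. The authors' merged table holds the cells left after removal of those with under 500 genes or over 10% mitochondrial UMIs. Its day 4 and day 7 columns were used, and no entry differed from the tables per day. A further 495 columns match no sample analysed here and were not used. Doublets were removed neither by the study nor here.

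UMIs were summed per day and scaled to CPM. Log2 ratios used a pseudocount of 1 CPM, genes were compared from a mean of 10 CPM, and a gene was called at 2-fold. At that minimum a gene has about 127 UMIs on day 4 and 116 on day 7. Levels carry exact Poisson intervals, ratios exact conditional binomial intervals and shares exact Clopper-Pearson intervals. Cells were thinned with seed 1. The call and thinning steps were tested on simulated data. With 1 library per day no test is possible, so no p-value or standard error is given. Named are the 20 largest rises and falls from a mean of 50 CPM, called list members (otherwise up to 4 with the largest ratio), all members of the pathways of the medium and the marker genes. The members and lists were chosen with earlier results of these data known. Values come from scipy 1.17.1, numpy 2.4.6 and pandas 2.3.3 under Python 3.11.15, and figures from matplotlib 3.10.9. The 12 alternatives cover cell filters, weighting of cells, thinning, scaling, pseudocount, minimum level and cells left out. Some results under these rules are not reported here.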

Additional observations from a re-analysis of the deposited data

How the results depend on the processing

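Counts of called genes depended on the minimum level and the pseudocount. A minimum of 50 CPM gave 49 higher and 56 lower genes of 3408 compared, and a minimum of 1 CPM gave 284 and 338 of 12573. A pseudocount of 10 CPM gave 74 higher and 113 lower genes. The other alternatives gave 115 to 179 higher and 162 to 181 lower genes. With a minimum of 1 CPM the median of the Notch targets was -0.42. The medians of 16 lists changed sign in at least 1 of the 12 alternatives, none of them larger than 0.26 in size. Of 109 named genes none changed direction, and 20 dropped under 2-fold in at least 1 alternative, Fmod and Ltbp4 in 5 each. Leaving out cells with at least 3 macrophage and germ cell UMIs, an alternative chosen after seeing the data, gave 130 and 164 genes. No paired analysis was possible because each day has 1 library, which also leaves no replicate to leave out. About 127 UMIs back the level of a gene at the minimum, and thinned shares under 1% rest on few cells.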
